A study of Mus musculus with 21 samples.

Results

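A set of 10 genes measured in this single-cell series codes for ligands, a ligand carrier and receptors of the transforming growth factor beta (TGF-beta) and activin pathways, and their transcripts are described here cell type by cell type. The members were chosen by name as Tgfb1, Tgfb2, Tgfb3, Inhba, Ltbp1, Tgfbr1, Tgfbr2, Tgfbr3, Acvr1 and Eng, and all 10 were found among the 32285 genes of the deposited table. TGF-beta proteins are secreted in a latent form that is tethered to matrix or to cells and must be freed before it can bind a pair of type I and type II receptors, which then phosphorylate SMAD proteins. Activin A, a dimer of the Inhba product, uses related receptors and the same SMAD branch, whereas bone morphogenetic proteins (BMPs) use other type I receptors and another branch. In lung and in tumors the pathway is known for driving fibroblasts to make matrix, for shaping vessels and for restraining immune cells.

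The cells came from mT/mG mice, young adults of both sexes in which every host cell carries tdTomato, and of which all but the unchallenged mice received fragments of the MT-ret melanoma under the skin. Host cells of the tumor microenvironment (TME) were sorted as tdTomato+, in part with removal of CD45+ cells, and unlabeled melanoma (MM) cells were sorted as tdTomato- from the same kinds of tissue. The gate was not given per library, so shares of cell types among all cells were not compared, and because the hosts carry no Cre all their cells keep the red label. There were 4 libraries of unchallenged lung, 4 of the TME of lung metastases, 4 of the TME of primary tumors, 2 of MM cells from metastases and 2 of MM cells from primary tumors. Replicate 1-3 of either tumor site is 1 sample in the labels, all other libraries came from 1 mouse each, and per the library names replicates 5 and 6 of metastasis and primary tumor came from the same mice.

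The deposited table held 110283 cells under 24 library names, of which 5 names were identical to another one, and counting these once left 100359 cells under 19 names. Those of 2 mice of metastasis and of 3 mice of primary tumor were summed to replicate 1-3, which gave 16 libraries. The repeated names gave other mice for the same counts, and replicate 6 of the metastasis TME was deposited a second time as sorted MM cells of metastasis, so the mouse and the sort of this library, used here as TME, rest on its first name. MM cells made up 2856 of 5166 cells in replicate 5 and 328 of 1036 in replicate 6 of the metastasis TME. Total counts of unique molecular identifiers (UMIs, 1 per captured transcript) ran from 1777036 to 60339415 per library. Replicate 6 of unchallenged lung, replicate 6 of the primary tumor TME and replicate 4 of the primary tumor MM cells were shallow, with medians of 1605, 1203 and 1654 UMIs per cell against 3050 to 5356 in the others. Libraries shared at most 1.09% of the barcodes of the smaller one. Cells were clustered without the members and without the other genes of the pathway, and 22 of 24 clusters were named from summed lineage markers, so that a name such as fibroblast stands for fibroblast-like by these markers. Levels are given as CPM, the UMIs of a gene in all cells of 1 type and library per 1000000 UMIs of these cells, and no level is compared between different genes.

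The fibroblast class of 2 libraries stood apart. In replicate 6 of unchallenged lung 2249 of 2363 cells lay in subclusters led by markers of neutrophils, ciliated cells, alveolar macrophages or AT-2 cells, and in replicate 6 of the primary tumor 1508 of 2056 cells lay in the subcluster led by markers of MM cells. Between tissues, fibroblast values are therefore given without these subclusters, with the calls of members also over the whole class, whereas levels among the cell types of lung are those of the whole class. Without them the summed fibroblast markers reached 22653 to 46148 CPM in lung, 29573 to 36067 in metastasis and 25493 to 35460 in primary tumor. Markers of mesothelium, 7 of 7 detected in metastasis, stood at 918 to 1026 CPM there, at 8.51 to 13.3 in primary tumor and at 181 to 1028 in lung. By rule, clusters led by markers of pericytes or smooth muscle counted as fibroblasts. The smooth muscle-like subcluster, with 8 of 8 such markers raised, was not taken out. Neither was the subcluster named metastasis CAF (cancer-associated fibroblast), with 7 of 7 mesothelial markers raised. Replicate 6 of lung still had the highest sums of other markers here, with club cell markers from 25.9 to 4906 CPM and neutrophil markers from 3.70 to 2710 over the 3 lung libraries, the highest in replicate 6. MM cell markers in these fibroblasts were at 0 to 5.50 CPM in lung, 961 to 4543 in metastasis and 507 to 1587 in primary tumor. The part of these other cells in the results was not tested.

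In unchallenged lung each member had its own order of cell types, shown in the heat map of mean levels, in which fibroblasts are the whole class. Over 10 members and 14 cell types there were 130 pairs of neighbours in these orders, and 7 of them differed in edgeR's quasi-likelihood test with library as a covariate (adjusted p under 0.05). Between 1.87% and 55.6% of all genes differed in the same pairs of types, so a difference between 2 types was in itself common. In 29 pairs the fit put the 2 types the other way round than the mean CPM, and all neighbours not named below differed by less than their spread allowed to call.

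**Figure D1:**
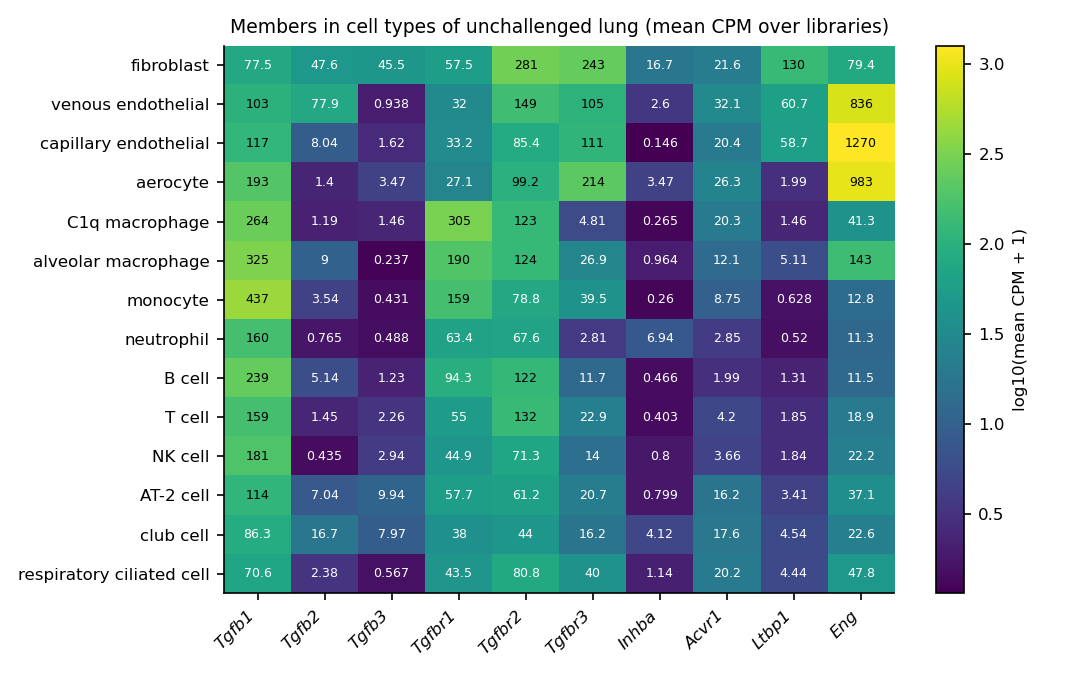
Mean CPM of the 10 members (columns) in 14 cell types (rows) of unchallenged lung, with the colour on a log10(mean CPM + 1) scale and the mean printed in each cell. Tgfb1 was highest in monocytes, the fibroblast row leads for Tgfb3, Tgfbr2, Tgfbr3, Inhba and Ltbp1, and Eng was highest in the 3 endothelial rows.

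Among the ligands, Tgfb1, the form made by most leukocytes, was found in every cell type of lung. Monocytes held 412.5, 409.4, 479.7 and 444.6 CPM in replicates 1, 4, 5 and 6, alveolar macrophages 339.6, 305.7, 341.1 and 313.5, and C1q macrophages 259.7, 232.0, 298.8 and 267.0. These 3 types did not overlap in any library, yet monocytes and alveolar macrophages did not pass the test (log2 fold change 0.68, edgeR adjusted p = 0.18, with 28.5% of genes called in this pair) until replicate 6 was left out (0.66, adjusted p = 0.0178). Tgfb2, a ligand known for its part in heart and vessel development, was highest in venous endothelium with 96.6, 42.0, 94.3 and 78.6 CPM and next in fibroblasts (47.6), but without the subclusters led by other types lung fibroblasts held a mean of 82.1 ± 50.8 CPM (SD, n = 3), above the 77.9 of venous cells. Tgfb3, a ligand known from palate and lung mesenchyme, was highest in fibroblasts with a mean of 45.5 ± 31.2 CPM (SD, n = 3), above AT-2 cells at 9.94 (log2 fold change 2.18, edgeR adjusted p = 0.0432, with 13% of genes called in this pair), a call that was lost with any of the 4 lung libraries left out. Inhba was low everywhere, with 16.7 ± 12.3 CPM in fibroblasts (n = 3) and 6.94 ± 7.99 in neutrophils (n = 4).

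Ltbp1, the latent TGF-beta binding protein that ties the ligand to matrix, was highest in fibroblasts and in venous and capillary endothelium. Aerocytes, the third endothelial type, held 1.99 ± 0.689 CPM (n = 4). Fibroblasts held 163, 171 and 56.3 CPM in replicates 4, 5 and 6, venous endothelium 60.7 ± 7.94 (n = 4) and capillary endothelium 58.7 ± 15.2 (n = 4). Fibroblasts exceeded venous cells by 0.98 on the log2 scale (edgeR adjusted p = 0.0472, 19.6% of genes called), a call lost without replicate 4 or 5, and capillary cells exceeded alveolar macrophages, the next type, by 3.41 (adjusted p = 1.12e-08, 41.5% called). In all other groups of cells the mean of Ltbp1 was at most 14.3 CPM.

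The receptors split between leukocytes, fibroblasts and endothelium. Tgfbr1, the type I receptor of TGF-beta, was highest in C1q macrophages with 244, 451, 286 and 242 CPM, and monocytes at 159 ± 19.3 exceeded B cells at 94.3 (log2 fold change 1.23, edgeR adjusted p = 0.0143, 22.5% called). Tgfbr2, the type II receptor, was highest in fibroblasts with 289, 346 and 209 CPM, above venous endothelium at 149 ± 17.9 by 0.94 (adjusted p = 0.0156, 19.6% called, lost without replicate 4 or 5). Tgfbr3, the co-receptor betaglycan, reached 243 ± 104 CPM in fibroblasts and 214 ± 67.3 in aerocytes, the capillary cells that line the alveolus, and venous cells at 105 ± 21.7 exceeded ciliated cells at 40.0 by 1.58 (adjusted p = 0.0105, 39.3% called). Acvr1, a type I receptor used mainly by BMPs, was highest in venous endothelium at 32.1 ± 9.62 CPM, and no neighbours in its order differed. Eng, the endothelial co-receptor endoglin, held 1432, 1501, 1009 and 1139.5 CPM in capillary cells, and the lowest of the 3 endothelial types, venous cells at 836 ± 166, exceeded alveolar macrophages at 143 ± 131 by 2.42 (adjusted p = 9.06e-05, 35% called).

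Next, fibroblasts were compared between the 3 tissues, the question for which the study was built, since it asked how cancer-associated fibroblasts (CAFs) of metastases differ from those of primary tumors. Inhba, Tgfb1 and Acvr1 were higher and Ltbp1 and Tgfbr3 lower in primary tumor than in unchallenged lung, and for each of these 5 members the mean level of metastasis lay between both tissues. The tissues held different fibroblasts, with 495 parenchymal, 205 extracellular matrix, 0 alveolar and 21 adventitial cells in primary tumor against 0, 0, 81 and 130 in lung, and 244 cells of the metastasis CAF subcluster in metastasis against 5 and 62 in primary tumor and lung. Metastasis also held 65 alveolar, 108 peribronchial and 22 adventitial cells, and per the study its samples contained some lung outside the tumor. A change within a subcluster and a change of makeup cannot be told apart in these sums. There were 3 libraries of lung (replicates 4, 5 and 6), 2 of metastasis (5 and 6) and 3 of primary tumor (4, 5 and 6) with at least 20 such cells. All comparisons between tissues come from 1 fit and share libraries, so the values of a gene in them are not independent of each other. Primary tumors grew under the skin, and no library of skin without tumor was present. In every class, organ and tumor therefore cannot be told apart between primary tumor and lung. Per the study, metastases were followed after the primary tumor had been resected, so site and time cannot be told apart between the tumor sites.

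Inhba, the subunit of activin A, had the largest fitted difference of the members. In fibroblasts without the subclusters led by another type it stood at 18.5, 30.6 and 27.5 CPM in lung, 54.3 and 171 in metastasis and 284, 417 and 572 in primary tumor. The 3 tissues did not overlap, and every primary tumor library was above all others. The difference between primary tumor and lung was 4.08 ± 0.49 (log2 fold change ± SE) or 16.9-fold, with an edgeR adjusted p of 0.000329, and it was called in each of 8 fits that left out 1 library. Over the whole class the values were 15.1, 29.8 and 5.38 CPM in lung and 283, 409 and 415 in primary tumor, a difference of 4.60 ± 0.69 (adjusted p = 0.00505). Metastasis lay between both, 2.03 ± 0.52 above lung (adjusted p = 0.0474) and −2.05 ± 0.51 against primary tumor (adjusted p = 0.0459). Both calls were close to the threshold and depended on how ties among the variable genes were broken in the subclustering, where an order by gene name was used. They were lost in 6 and 5 of 8 fits without 1 library, that without replicate 6 of lung, the library that stood apart, among them in either case, and neither was made over the whole class (2.72 and −1.88, adjusted p = 0.10 and 0.35). The replicate number, which by the library names marks the same mice for part of the metastases and primary tumors, gave −2.36 as a block (adjusted p = 0.00962).

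**Figure D2:**
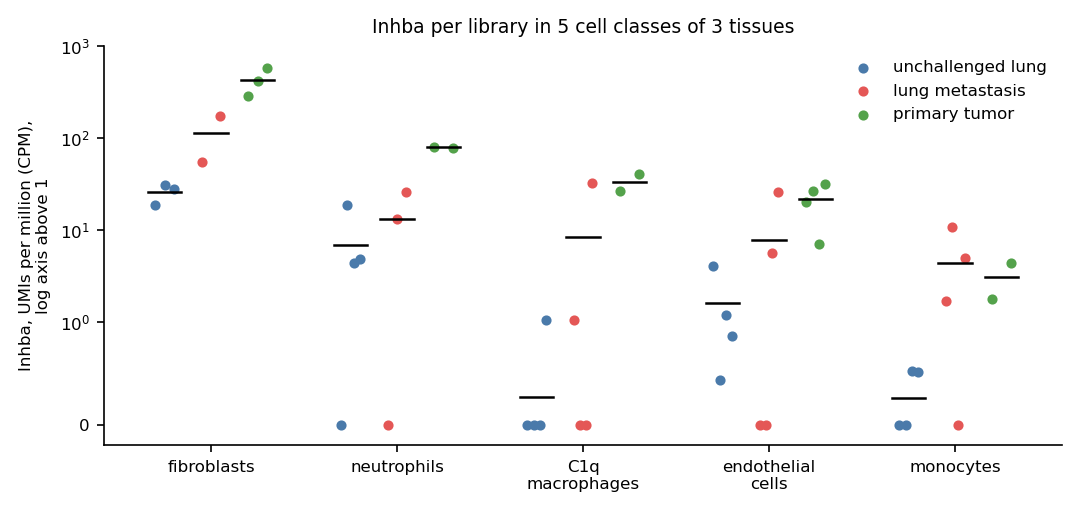
Inhba in CPM per library (log axis above 1, linear below) in fibroblasts without subclusters led by another type, neutrophils, C1q macrophages, endothelial cells and monocytes of unchallenged lung, metastasis and primary tumor, with a line at each mean. Primary tumor fibroblasts sit at 284 to 572 CPM, above metastasis at 54.3 and 171 and lung at 18.5 to 30.6.

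In the 3 primary tumor libraries tested most Inhba UMIs came from 1 subcluster. The cells named parenchymal, by 3 of the 4 markers Col15a1, Fbn2, Tnc and Mmp11, none of which was among their 10 leading genes, held 203 of 318, 272 of 303 and 1705 of 2065 Inhba UMIs of the class in replicates 4, 5 and 6. Replicate 1-3, with 17 fibroblasts too small for the tests, held 34 Inhba UMIs, of which 0 were parenchymal. Their level was 569.5, 1047 and 728 CPM, against 41.4, 40.03 and 67.9 in the subcluster named extracellular matrix and 135, 71.4 and 132 in smooth muscle-like cells. Cells led by MM cell markers held 302 UMIs in replicate 6, at 159 CPM. The subcluster named metastasis CAF, whose leading genes are also those of mesothelium, held 39.7 and 112 CPM in metastasis. In lung, alveolar fibroblasts held 0, 27.3 and 26.2 CPM, adventitial fibroblasts 20.9 and 19.7, and the few peribronchial cells 104 and 136 (5 and 10 UMIs). Inhba was not used for the clustering, and the parenchymal cells stood above all other subclusters in each of the 3 primary tumor libraries.

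The promoter of Inhba, chosen because this gene changed most, is given as the 250 bases before the annotated start in RefSeq (GRCm38.p6, plus strand), with a TATAAA match in capitals that begins 91 bases before the start.
Inhba chr13:16011601-16011850: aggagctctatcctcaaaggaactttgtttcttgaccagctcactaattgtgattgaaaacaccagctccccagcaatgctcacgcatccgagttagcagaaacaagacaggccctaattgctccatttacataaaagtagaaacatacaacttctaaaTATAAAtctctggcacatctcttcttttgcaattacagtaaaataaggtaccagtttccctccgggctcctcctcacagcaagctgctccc
The promoters searched ran from 250 bases before to 50 bases after the start, a longer window than the 250 bases printed. Of 32851 promoters 13.6% held TATAAA on either strand, and of the 10 promoters found for 8 members, those of Tgfb2 and Inhba did. The other motifs searched on both strands were the cAMP response element TGACGTCA (1.79% of promoters), the AP-1 motif TGANTCA (7.81%), the SMAD palindrome GTCTAGAC (0.213%) and the core CAGACA of the CAGA box (21.0%), of which the printed window of Inhba holds none.

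Tgfb1 in fibroblasts without the led subclusters was 29.6, 14.8 and 60.5 CPM in lung, 69.5 and 35.7 in metastasis and 136, 92.1 and 163 in primary tumor. Primary tumor lay above both other tissues in every library, with a difference to lung of 2.11 ± 0.47 (edgeR adjusted p = 0.00995) that was lost without replicate 5 of lung (adjusted p = 0.0561) and held in the other 7 fits without 1 library. Over the whole class replicate 6 of lung stood at 177.5 CPM and the difference fell to 0.79 (adjusted p = 0.50). It was called there only without that library (2.44, adjusted p = 0.00596). Parenchymal cells held 202, 196 and 192 CPM, smooth muscle-like cells 66.04, 0 and 38.8 and the extracellular matrix subcluster 0, 28.0 and 63.8. A subcluster without a name, led by Apod, held 186 and 180 CPM in replicates 4 and 6, close to the parenchymal cells.

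Ltbp1 moved the other way. It stood at 167, 172 and 162 CPM in lung, 42.01 and 100.03 in metastasis and 19.6, 51.0 and 20.4 in primary tumor, and every lung library exceeded all others. The difference between primary tumor and lung was −2.41 ± 0.43 (edgeR adjusted p = 0.00311, called in 8 of 8 fits without 1 library), and over the whole class −2.02 ± 0.55 (adjusted p = 0.0434, lost in 7 of 8). Alveolar fibroblasts of lung held 182, 182 and 315 CPM and adventitial ones 154 and 151, whereas in primary tumor smooth muscle-like cells held 0 in each of the 3 libraries, parenchymal cells 33.7, 19.2 and 11.1, and the extracellular matrix subcluster 41.4, 100.1 and 74.05.

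Since Ltbp1 changed in fibroblasts and in endothelium, its first RefSeq promoter is shown as well (plus strand), with a TGACGTCA match in capitals that begins 73 bases before the start.
Ltbp1 chr17:75005279-75005528: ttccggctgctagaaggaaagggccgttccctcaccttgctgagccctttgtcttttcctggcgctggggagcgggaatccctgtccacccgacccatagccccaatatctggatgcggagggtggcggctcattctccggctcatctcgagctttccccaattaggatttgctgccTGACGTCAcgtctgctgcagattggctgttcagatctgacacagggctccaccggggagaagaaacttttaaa
Ltbp1 was the only member with this motif. A second Ltbp1 promoter in RefSeq (chr17:75178531-75178780, plus strand) held CAGACA at 149 and 98 bases before its start and no TGACGTCA. A match describes the letters of the window and no bound factor.

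Tgfbr3 and Acvr1 were the other members called. Tgfbr3 was 300.02, 313 and 258 CPM in lung, 94.1 and 168 in metastasis and 41.01, 136 and 78.5 in primary tumor, with lung above every tumor library. Primary tumor differed from lung by −1.68 ± 0.42 on the log2 scale (edgeR adjusted p = 0.0173), a call lost without replicate 6 of primary tumor or replicate 5 of lung, and over the whole class by −1.59 (adjusted p = 0.0806). Unlike Inhba and Tgfb1, Tgfbr3 was highest among primary tumor cells in the extracellular matrix subcluster, at 228, 304 and 202 CPM against 58.9, 50.03 and 55.95 in parenchymal cells. Acvr1 rose from 14.8, 30.6 and 10.99 CPM in lung to 61.5, 35.4 and 71.3 in primary tumor, with 27.4 and 28.6 in metastasis. The difference to lung was 1.52 ± 0.42 (edgeR adjusted p = 0.0264), lost without replicate 4 or 6 of primary tumor or of lung. Over the whole class it was 1.30 (adjusted p = 0.0386), lost with the replicate block (1.29, adjusted p = 0.0645, with 12.6% of genes called) and in 7 of 8 fits without 1 library.

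**Figure D3:**
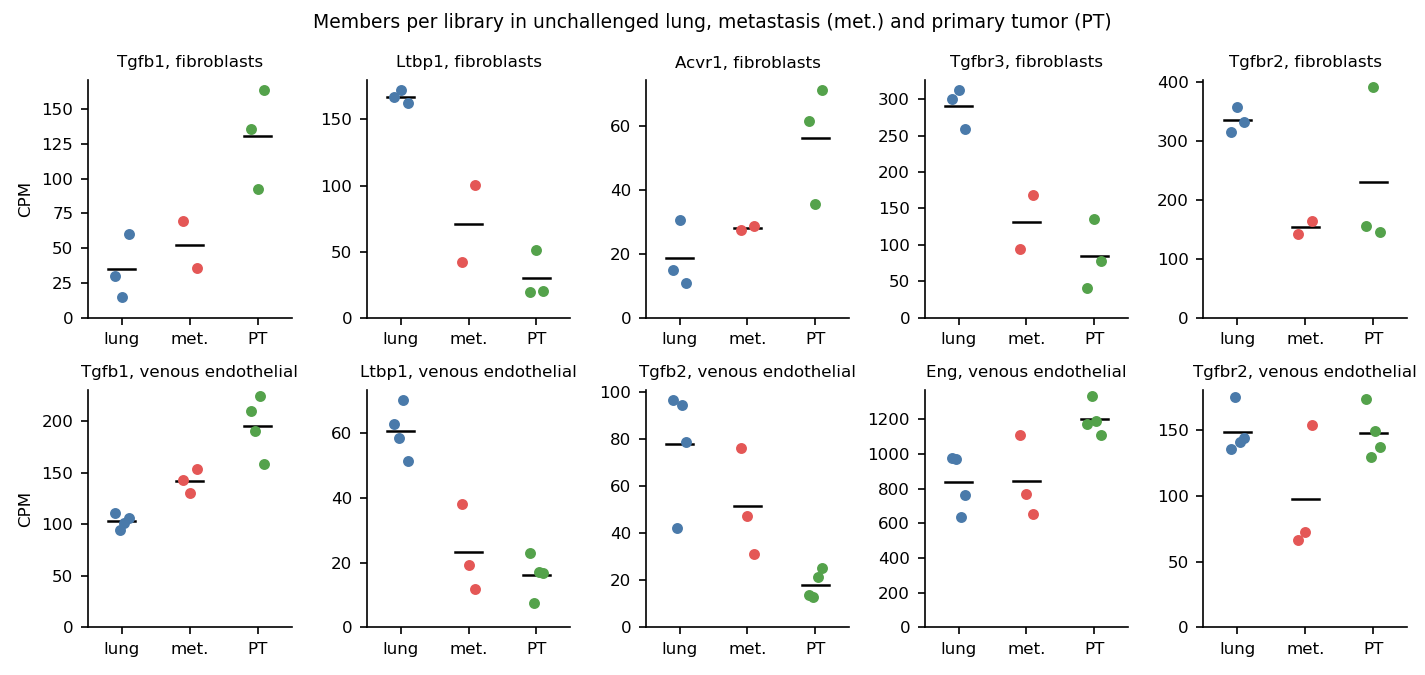
CPM per library of Tgfb1, Ltbp1, Acvr1, Tgfbr3 and Tgfbr2 in fibroblasts without subclusters led by another type (upper panels) and of Tgfb1, Ltbp1, Tgfb2, Eng and Tgfbr2 in venous endothelial cells (lower panels), by tissue, with a line at each mean. Lung fibroblasts sit above all tumor libraries for Ltbp1 (162 to 172 CPM) and Tgfbr3 (258 to 313 CPM).

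In all, 5 of 10 members were called between primary tumor and lung without the led subclusters, 3 higher and 2 lower, where 16.9% of all genes were called, and the median log2 fold change of the members was −0.10 against 0.04 for all genes. Over the whole class it was 3 of 10 (11.9% of genes), with a median of 0.13 against −0.03. Between metastasis and lung 2 members were called without the led subclusters (5.22% of genes), Inhba and Tgfbr1, the latter with 37.04, 27.5 and 35.7 CPM in lung against 58.3 and 211 in metastasis (1.99, edgeR adjusted p = 0.0362). Replicate 6 of metastasis was far above the others, and the call was lost without it, without replicate 5 of primary tumor and without any lung library. The whole class gave 0 calls there (0.883% of genes; 2 members and 18.96% of genes had an unadjusted p under 0.05, and DESeq2 called 1 member). Between metastasis and primary tumor edgeR called Inhba alone without the led subclusters (4.03% of genes) and 0 members in the whole class (0.937% of genes), with 4 and 2 members at an unadjusted p under 0.05 (15.4% and 10.2% of genes), and DESeq2 called 0 members in the whole class.

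Tgfb2, Tgfb3, Tgfbr2 and Eng were not called in fibroblasts in any comparison of tissues. Tgfb2 ranged from 33.3 to 135 CPM in lung, 95.2 to 121 in metastasis and 53.9 to 75.8 in primary tumor, and the primary tumor lay inside the lung range. Tgfbr2 was 315, 358 and 333 CPM in lung, 143 and 164 in metastasis, and 155, 391 and 145 in primary tumor, where replicate 5 stood above the lung and the other libraries with the metastases.

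Fibroblast genes of the wider pathway were taken from lists of 63 other genes. Without the led subclusters 51 were tested between primary tumor and lung, of which 10 were higher and 10 lower (16.9% of all genes called), while over the whole class it was 5 and 9 of 53 (11.9%). In the comparisons of metastasis with primary tumor and with lung, 5 and 6 of the 51 were called (4.03% and 5.22% of all genes), and 0 of 53 over the whole class, so all calls of metastasis below were lost there. Of the genes for latency and activation 2 of 9 rose and 1 fell. Lrrc32, which tethers latent TGF-beta to the cell surface, rose from 3.70 to 15.8 CPM in lung to 97.2 to 115 in primary tumor (3.19, edgeR adjusted p = 0.000316). Itgav, an integrin chain of receptors that can free latent TGF-beta, rose from 63.0 to 89.8 CPM to 121 to 203 (1.25, adjusted p = 0.0235), and Ltbp4, the binding protein of elastic fibers, fell from 643 to 1006 CPM to 241 to 328 (−1.35, adjusted p = 0.0267). Among ligands 1 of 6 rose, Inhbb, which was at 0 to 4.23 CPM in lung and 9.81 to 25.9 in primary tumor, and 3 fell. Bmp5 went from 93.5 to 193 CPM in lung to 0.973 to 4.25 in primary tumor, Bmp4 from 157 to 252 to 0 to 3.57 and Gdf10 from 29.6 to 142 to 1.30 to 7.09 (edgeR adjusted p = 8.21e-05, 0.000169 and 0.000884). Metastasis held 10.7 to 28.01 CPM of Bmp5 and 14.3 to 54.9 of Bmp4, above primary tumor for both (adjusted p = 0.00918 and 0.0079), and below lung for Bmp5 (adjusted p = 0.0206).

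Of 5 inhibitors 1 fell, Chrdl1, which binds BMPs, from 51.9 to 150.01 CPM in lung to 2.59 to 9.92 in primary tumor (edgeR adjusted p = 0.000485). Of 6 other receptors 2 fell, Acvrl1, the type I receptor ALK1 (87.96 to 119 CPM against 17.2 to 27.6), and Acvr2a, a type II receptor for activins (49.5 to 81.5 against 19.6 to 33.4). SMADs and their regulators gave 4 higher and 2 lower of 15, with the repressors Tgif1 (1.93) and Skil (1.54) up on the log2 scale and the inhibitory Smad6 down (−2.75). Smad9, a BMP-branch SMAD, was 13.7 to 25.9 CPM in lung and 0 to 0.892 in primary tumor. Of 10 target genes 3 rose and 1 fell. Periostin (Postn) rose from 13.7 to 230 CPM to 553 to 991 and fibronectin (Fn1) from 638 to 995 to 3016 to 4595, while Id2, a target of BMPs, fell from 63.0 to 212 to 19.8 to 46.4. Fn1 was higher than in lung in metastasis also, at 2906 and 6423 CPM (2.52, edgeR adjusted p = 0.0192).

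Endothelial cells differed in makeup between tissues before any gene was compared. Cells of venous clusters made up 84.31 to 100% of the endothelium of primary tumors, 10.75 to 59.76% in metastases and 7.29 to 24.13% in lung, so values are given for all endothelial cells and for venous cells alone. Venous is short for clusters led by markers of venous or large vessel endothelium. Whether such cells of tumor and of lung line the same kind of vessel was not tested. A change within a vessel type and a change of vessel type therefore cannot be told apart in venous cells either. Fibroblast markers summed to 851 to 2492 CPM in venous cells of primary tumor, 509 to 1932 in lung and 765 to 1411 in metastasis, and MM cell markers to 219 to 1737, 3.34 to 13.7 and 629 to 8183. Their part in the results was not tested. Tgfb3 was too low to be tested, so 9 members remained.

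In venous cells Tgfb1 and Inhba were higher and Ltbp1 and Tgfb2 lower in primary tumor than in lung. Tgfb1 was 111, 94.9, 101 and 106 CPM in lung (replicates 1, 4, 5 and 6) and 211, 191, 224 and 158 in primary tumor (1-3, 4, 5 and 6), with 143, 131 and 154 in metastasis (4, 5 and 6). The 3 tissues did not overlap for this ligand, and the difference between primary tumor and lung was 0.97 ± 0.20 (edgeR adjusted p = 0.00218). Ltbp1 was 60.7 ± 7.94 CPM in lung (51.3 to 70.2, n = 4) and differed by −1.98 ± 0.32 (adjusted p = 0.000268) in primary tumor and by −1.58 ± 0.36 (adjusted p = 0.0121) in metastasis. Tgfb2 was 96.6, 42.0, 94.3 and 78.6 CPM in lung, 76.3, 47.2 and 31.2 in metastasis and 13.7, 12.7, 21.3 and 25.0 in primary tumor, where all 4 libraries lay below all others (−1.96 ± 0.34 against lung, adjusted p = 0.000429).

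Inhba in venous cells was 0, 3.65, 3.34 and 3.42 CPM in lung, 0, 6.44 and 45.6 in metastasis and 22.9, 26.7, 7.10 and 31.8 in primary tumor. The lung levels rest on 0, 2, 5 and 1 UMIs, and Inhba passed the filter on low counts only through tumor libraries. Every primary tumor library exceeded every lung library (2.97 ± 0.77, edgeR adjusted p = 0.0106), a call that was lost without replicate 6 of primary tumor. MM cells of the primary tumor TME held 12.9, 23.6 and 19.6 CPM of Inhba in replicates 4, 5 and 6 (3, 7 and 9 UMIs). Sorted MM cells of primary tumor held 1.48 and 2.93 CPM in replicates 4 and 5. The part of RNA of other cells in the Inhba of venous cells was not tested. The calls of Tgfb1, Tgfb2 and Ltbp1 held in each of 11 fits that left out 1 library. These were 4 of 9 tested members called between primary tumor and lung, where 21.8% of genes were called. Between metastasis and lung it was 1 of 9, Ltbp1 (8.46% of genes), lost without replicate 5 or 6 of metastasis, and between metastasis and primary tumor 0 of 9 by edgeR (4.56% of genes; 1 member and 14.6% of genes at an unadjusted p under 0.05).

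Over all endothelial cells 4 of 9 members were called between primary tumor and lung (28.3% of genes), with a median of 0.20 against −0.02 over all genes. Inhba differed by 3.93 ± 0.82 (edgeR adjusted p = 0.00206), Tgfb1 by 0.61 (0.0215), Tgfbr2 by 0.67 (0.0303) and Ltbp1 by −1.39 (0.0146), all adjusted p. Inhba was at 0.437 to 4.02 CPM in lung and passed the filter on low counts only through tumor libraries. Tgfbr2 stood at 164, 129.7, 149 and 137 CPM in primary tumor against 92.8, 97.3, 97.0 and 107 in lung, without overlap, but this call was lost in all 8 fits without 1 library of these tissues and with the replicate block (adjusted p = 0.0747, 27.9% of genes called). In venous cells the same difference was 0.02 (adjusted p = 0.97). The Tgfb1 call was made in 11 of 18 alternatives, and the fits that lost it included those without any of 5 libraries. That of Ltbp1 was lost without replicate 4 of primary tumor. Tgfb2, called lower in venous cells, differed by 0.20 over all endothelial cells (adjusted p = 0.81), while Tgfbr3 at −1.01 was called in 5 of 18 alternatives, among them the replicate block (−1.41, adjusted p = 0.0279) and the fits without replicate 5 of metastasis (−1.02, adjusted p = 0.0334) or replicate 1 of lung (−1.21, adjusted p = 0.0492).

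Metastasis against primary tumor gave 1 call over all endothelial cells (12% of genes), Tgfbr2 at 65.6, 74.1, 70.4 and 136.8 CPM in metastasis (−0.78 ± 0.22, edgeR adjusted p = 0.0348). Replicate 6 of metastasis alone was inside the primary tumor range, and the call was lost in 9 of 12 fits without 1 library, with adjusted p from 0.0509 to 0.107. Metastasis against lung gave 0 calls by edgeR (3.55% of genes; 1 member, Inhba, and 17.9% of genes at an unadjusted p under 0.05). Eng was 1162, 1334, 1189.97 and 1109 CPM in primary tumor, 661.9, 1519, 835 and 597 in metastasis and 1219, 1411, 874 and 959.8 in lung, with overlap among all tissues and no call. In venous cells alone Eng was 976, 969, 637 and 762 CPM in lung, 1106, 767 and 656 in metastasis and 1172, 1334, 1189.97 and 1109 in primary tumor. There the primary tumor lay above both other tissues in every library, yet the difference to lung was not called (0.58 ± 0.24, edgeR adjusted p = 0.10).

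**Figure D4:**
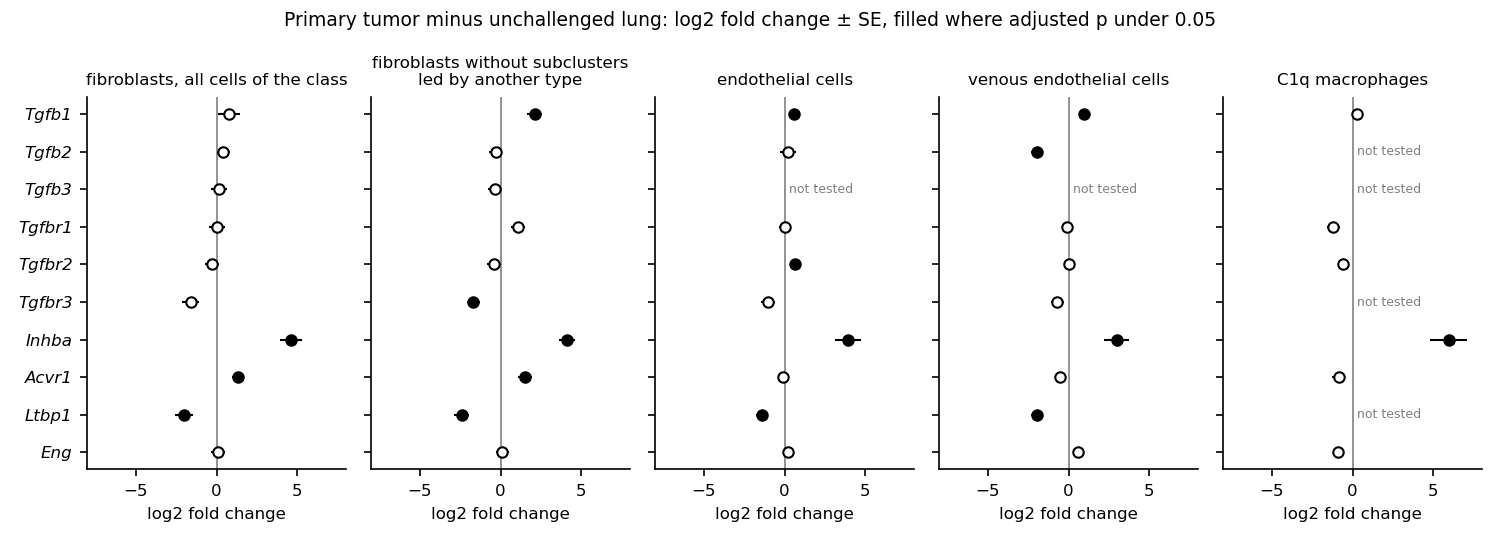
Log2 fold change ± SE between primary tumor and unchallenged lung for the members tested in 5 sets of cells, filled where the edgeR adjusted p was under 0.05. Inhba is filled and above 0 in all 5 panels (2.97 to 5.94), and Ltbp1 is filled and below 0 in the 4 panels of fibroblasts and endothelium (−1.39 to −2.41). In macrophages Inhba had 1 UMI in lung and passed the filter on low counts only through the tumor libraries. In the endothelial panels it also passed only through tumor libraries, with lung at no more than 4.02 CPM.

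The wider pathway in venous cells gave 10 higher and 9 lower of 42 genes tested between primary tumor and lung (21.8% of all genes called), against 17 and 8 of 41 over all endothelial cells (28.3%), where 5 of 8 genes for latency and activation and 6 of 10 targets rose and 0 of either fell. Of 5 other receptors 3 fell. Acvrl1 went from 623 to 978 CPM in lung to 108 to 131 in primary tumor (−2.64, edgeR adjusted p = 1.52e-06), Bmpr2, the type II receptor of BMPs, from 869.8 to 1607 to 321 to 368 (adjusted p = 0.000677) and Acvr1b, the type I receptor of activin, from 32.8 to 53.2 to 9.15 to 14.0 (adjusted p = 0.0155). Metastasis was intermediate for Acvrl1, at 322 to 515 CPM, and called against both other tissues (adjusted p = 0.000658 and 0.0383). Of 3 other ligands, Inhbb, the second activin subunit, rose from 0 to 31.4 CPM to 138 to 264 (adjusted p = 0.000133), and Bmp6 and Bmp4 fell. Of 8 genes for latency and activation 2 rose, Thbs1, a matrix protein that can free latent TGF-beta, from 15.4 to 85.8 CPM to 164 to 352, and Lrrc32 from 54.7 to 79.7 to 128 to 145. Of 14 SMADs and regulators 2 rose and 3 fell, with the feedback inhibitors Smad6 (−3.64) and Smad7 (−1.75) lower, and of 10 targets 4 rose and 1 fell, with Fn1 at 262 to 616 CPM against 10.9 to 78.6. The inhibitor called, Dcn, is also a fibroblast marker, and it was 4.58 to 326 CPM in primary tumor.

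Macrophages named by C1q had enough cells in 4 libraries of lung, 4 of metastasis and 2 of primary tumor (replicates 1-3 and 4), and 6 of 10 members were tested. Inhba, hardly detected in lung, was detected in both libraries of primary tumor and, above 1 UMI, in 1 of metastasis. Lung held 0, 0, 0 and 1.06 CPM, which is 1 UMI in all, metastasis 1.04, 0, 0 and 32.4 CPM, and primary tumor 26.3 CPM (71 UMIs) and 39.9 CPM (525 UMIs). Both primary tumor libraries lay above all of lung and replicate 6 of metastasis lay between them. The pooled rate in primary tumor was 73.5 times that of lung, with an exact 95% interval from 13.1 to 2909 that covers counting error only, and in metastasis 18.2 times (2.84 to 765). Of the 16 UMIs of metastasis 15 came from replicate 6, and without it the rate was 1.56 times that of lung (0.0199 to 123). In that library Inhba was also at 37.7 CPM in MM cells, 27.5 in club cells, 25.8 in neutrophils and 45.6 in venous cells (65, 8, 15 and 19 UMIs). Ciliated cells, monocytes and capillary cells held 3.56, 4.96 and 0 CPM there. The part of RNA of other cells in the Inhba of its macrophages was not tested. The edgeR fit called primary tumor against lung (log2 fold change 5.94, adjusted p = 0.00409), a call made in 12 of 14 alternatives. It was lost without replicate 4, where 1 library of primary tumor is left and the log2 fold change was 5.39. With 1 UMI in lung, Inhba passed the filter on low counts only through the tumor libraries. Metastasis against lung was not called (edgeR adjusted p = 0.105). That difference was called with the replicate block (adjusted p = 0.0278, with 4.2% of genes called), without replicate 1-3 of metastasis (adjusted p = 0.0313) and without the filter on low counts (adjusted p = 0.00194).

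Inhba was 1 of 6 members called between primary tumor and lung in these macrophages (9.26% of genes), while 5 had an unadjusted p under 0.05, as had 25.1% of genes. Eng was the 1 member called between metastasis and lung (8.33% of genes), at 8.35, 8.35, 23.0 and 17.3 CPM against 27.1, 34.7, 50.2 and 53.0 (−1.70 ± 0.37, edgeR adjusted p = 0.01), without overlap but lost when replicate 1-3 of metastasis was left out (−1.34, adjusted p = 0.0723). These levels rest on 21 UMIs in metastasis and 89 in lung. Mean Eng was lower in metastasis than in lung also in most other types. Alveolar macrophages held 14.0 CPM (1 library) against 143, NK cells 3.58 against 22.2, and B cells 5.79 against 11.5. Ciliated cells held 21.4 against 47.8, fibroblasts 44.6 against 79.4, and AT-2 cells 24.1 (1 library) against 37.1. Aerocytes, capillary cells, club cells and T cells were lower too. Mean Eng was higher in metastasis only in neutrophils (27.8 against 11.3), monocytes (15.9 against 12.8) and venous cells (843 against 836). The part of RNA of other cells in the Eng of macrophages was not tested. Between metastasis and primary tumor edgeR called 0 members and 0 of 6998 genes, with 331 genes and 1 member at an unadjusted p under 0.05, and DESeq2 called 17 genes. Tgfb1, with 260, 232, 299 and 267 CPM in lung, 243, 142, 310 and 281 in metastasis and 377 and 244 in primary tumor, overlapped among all 3 tissues. Tgfbr1 was 244, 451, 286 and 242 CPM in lung and 112 and 150.3 in primary tumor without a call (−1.20, edgeR adjusted p = 0.0803), and was called in 4 of 15 alternatives (lowest adjusted p = 0.0311), among them without metastasis replicate 5 (−1.18, adjusted p = 0.0363).

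Of the wider pathway, Fn1, Tgfbi and Thbs1 rose in macrophages of both tumor sites. Against lung, 3 genes were higher and 1 lower in primary tumor (9.26% of all genes called) and 6 higher and 2 lower in metastasis (8.33%), of 25 tested. Fn1 was 77.5 to 277 CPM in lung, 994 to 4307 in metastasis and 1041 to 1292 in primary tumor, Tgfbi, a matrix protein named for its induction by TGF-beta, 364 to 451, 713 to 1161 and 916 to 1121, and Thbs1 3.88 to 13.3, 184 to 2346 and 145 to 459. The edgeR adjusted p against lung were 0.000197 and 0.00242 for Fn1, 0.00532 and 0.00589 for Tgfbi and 0.000106 and 0.00101 for Thbs1, in metastasis and primary tumor. Bmpr2 fell in both, with lung at 64.0 to 219 CPM, metastasis at 43.2 to 58.4 and primary tumor at 40.9 to 49.7.

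Because fibroblasts of primary tumors carried most Inhba, its UMIs were set beside those of 11 fibroblast markers in the same cells and libraries. In primary tumor there were 1.11 to 2.08 Inhba UMIs per 100 marker UMIs in the fibroblast class. Venous endothelium held 0.566 to 2.69, a range that overlaps that of the fibroblasts. C1q macrophages held 24.6 and 49.0, neutrophils 12.6 and 150, and monocytes 3.45 and 5, all above every fibroblast value. These leukocyte values come from replicates 1-3 and 4, and those of fibroblasts from replicates 4, 5 and 6, so only replicate 4 holds both. The monocyte values rest on 1 Inhba UMI in replicate 1-3 and 3 UMIs in replicate 4. MM cells of the primary tumor TME held 1.39 to 15. In lung, neutrophils held 0 to 100 and aerocytes 0 to 150. Summed fibroblast markers in C1q macrophages were 53.8 to 162 CPM in primary tumor and 80.0 to 147 in lung, and the part of fibroblast RNA in the Inhba of other cells was not tested. The class here includes the cells led by MM cell markers in replicate 6, and parenchymal cells were not taken alone. Lung fibroblasts held 0.0496 to 0.0745 and metastasis fibroblasts 0.182 and 0.472 per 100 marker UMIs, without overlap among the 3 tissues.

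**Figure D5:**
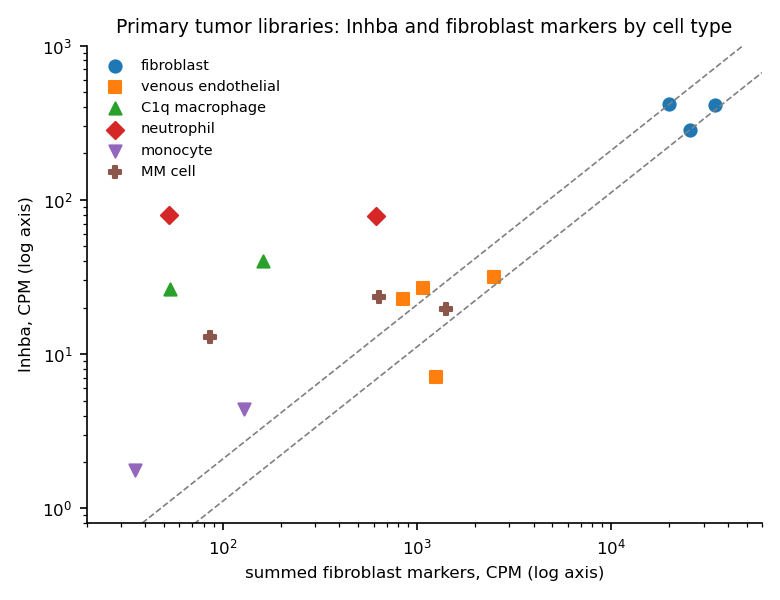
Inhba CPM against the summed CPM of the fibroblast markers (both log axes) for cell types of the primary tumor libraries, with dashed lines at the lowest and highest ratio of the fibroblast class. Venous endothelial points lie around the dashed band, and those of C1q macrophages and neutrophils lie above it.

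Neutrophils, known for granules and early recruitment, were not among the classes tested between tissues, but in primary tumor and in lung they had the second highest mean level of Inhba after fibroblasts. Primary tumor held 79.6 CPM (6 UMIs) and 78.0 CPM (46 UMIs), lung 0, 18.5, 4.42 and 4.88 and metastasis 0, 13.2 and 25.8. Monocytes held 1.76 and 4.43 CPM in primary tumor (1 and 3 UMIs), 1.69, 10.8, 0 and 4.96 in metastasis and 0, 0, 0.525 and 0.513 in lung.

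Sorted MM cells expressed ligands, with MM cell markers at 17766 to 25146 CPM in metastasis and 18357 to 19074 in primary tumor. Tgfb1 was 69.1 and 58.9 CPM in metastasis (replicates 4 and 5) against 40.7 and 47.2 in primary tumor, without overlap. The fitted difference was 0.41 on the log2 scale (edgeR unadjusted p = 0.26). Tgfbr1 did not overlap either, at 27.1 to 32.2 CPM against 12.1 to 26.2. The share of all genes without overlap was not computed. Replicate 4 of metastasis held 395 MM cells among 638 cells, and its B cells stood at 204 CPM of Tgfb1. Tgfb2 was 91.7 and 63.3 against 79.8 and 97.1, and Inhba 7.68 and 0.929 against 1.48 and 2.93, both overlapping. Of 10 members edgeR called 0, as it did 0 of 14435 genes, with 440 genes and 1 member at an unadjusted p under 0.05, and DESeq2 called 15 genes. That member was Ltbp1, with 22.1 and 18.4 CPM in metastasis and 25.2 and 49.8 in primary tumor (−0.99, edgeR adjusted p = 1.00). Receptors were measured in MM cells too, Tgfbr2 at 128 and 81.2 CPM against 81.7 and 108 and Eng at 89.8 and 101 against 76.3 and 134.

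Over 41 groups of 1 cell type and 1 tissue, the genes whose mean levels were most like those of a member were listed by Pearson's r of log2(CPM + 1) among 11871 genes, as a description, since groups share libraries and depth. Inhba was most like Tnc (0.82), Apod (0.81) and Acta2 (0.79), of which Tnc is a marker of the parenchymal subcluster. Ltbp1 was most like Plat (0.89), Casp12 and Tril, Eng like Rtl8a (0.92), Lims2 and Wscd1, and Tgfb3 like Col6a1 (0.85), Kdelr3 and Vgll3. For Tgfb1 these were Ppp1r9b (0.90), Camta2 and Rnf130, for Tgfb2 Cdc42ep5 (0.88), Hspg2 and Bace2, and for Acvr1 Bcl2l2 (0.88), Kifc3 and Kdelr1. For the receptors these were Il17rd (0.84) for Tgfbr3, Psap (0.80) for Tgfbr1 and Trpm7 (0.73) for Tgfbr2.

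All members are protein-coding genes (GRCm38, gene spans of the GENCODE annotation). Of the ligands, Tgfb1 lies at chr7:25687002-25705077 on the plus strand, Tgfb2 at chr1:186622792-186705989 and Tgfb3 at chr12:86056745-86079041 on the minus strand, and Inhba at chr13:16011851-16031621 on the plus strand. Ltbp1 spans chr17:75005568-75392512 (plus). Among the receptors, Tgfbr1 lies at chr4:47353222-47414931 (plus), Tgfbr2 at chr9:116084293-116175360 (minus), Tgfbr3 at chr5:107106570-107289629 (minus), Acvr1 at chr2:58388644-58567157 (minus) and Eng at chr2:32646595-32682669 (plus).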

How the data were processed

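Per the labels and the study's methods, libraries were made with the 10x 3' kit v3.1, aligned to GRCm38 (mm10) with Cell Ranger 6.1.1 and filtered in Seurat 3.2.2 by quantiles of genes and of ribosomal and mitochondrial reads. The authors deposited a matrix of raw UMI counts, which was used, and a normalized one, which was not. The members, lists and alternatives were chosen with earlier results of these data known.

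Library names with identical counts were used once. Some names carry another replicate number than the labels and were matched by elimination or by the mouse number. These were 1 lung library, the sorted MM libraries other than replicate 4 of metastasis, and replicate 7 of the primary tumor TME, a repeated one. Doublets were not removed again and were not called. Cells were clustered with Seurat 5.3.0 (2000 variable genes, 17 principal components, resolution 0.5) after removal of 32 member and pathway genes from the variable genes. A cluster was named where at least 3 markers of a type were detected in at least 10% of its cells with a log2 fold above 1. Of several such types the one with the highest mean log2 fold was taken. Clusters whose leading gene was on a list fixed beforehand stayed unnamed, whatever their markers. Raw counts were summed per library and class (at least 20 cells) and tested in 1 fit per class with edgeR 4.0.16 (filterByExpr, TMM, quasi-likelihood test, Benjamini-Hochberg adjustment over all genes tested) in R 4.3.3. DESeq2 1.42.0 was an alternative. The scripts were tested on simulated counts with known changes. A p-value measures the spread between libraries, most of which are single mice. Reads of overlapping genes cannot be told apart in the summed counts.

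Named genes were the 10 members and, per list and comparison, at most 4 pathway genes with the smallest adjusted p. Same replicate numbers of metastasis and primary tumor mark the same mice for replicates 5 and 6 by the library names, share mice in part for 1-3 and mark different mice for 4. Toward lung the numbers 4, 5 and 6 mark only a shared run in the library names, which do not say what a run was. As a block, replicate 1 of lung stood apart from 1-3, and 5 and 6 stood apart though both were named run 3. Deviations of same-numbered libraries of metastasis and primary tumor correlated at −0.125 and −0.0615 in fibroblasts, −0.00023 to 0.16 in endothelium and 0.0226 to 0.15 in macrophages. Promoters came from RefSeq on GRCm38.p6, and 8 of 10 members had an entry.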

Additional observations from a re-analysis of the deposited data

Results flagged for a closer look

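In 15 of 130 groups of 4 libraries, 1 library stood apart from the other 3 by Dixon's criterion (gap over range), where chance alone flags about 1 in 20 groups of continuous values. In 6 of them the other 3 libraries were at 0, so that any UMI meets the criterion and this rate does not apply. In unchallenged lung, replicate 6 was high for Tgfb3 in aerocytes (7.18 CPM against 1.80 to 2.66), in alveolar macrophages (0.950 against 0) and in neutrophils (1.95 against 0), for Inhba in B cells (1.86 against 0) and C1q macrophages (1.06 against 0), and for Acvr1 in B cells (7.45 against 0 to 0.521). Replicate 1 of lung was high for Tgfbr1 in alveolar macrophages (302.6 against 143 to 160.1) and for Inhba in aerocytes (13.3 against 0 to 0.532), and low for Inhba in venous endothelium (0 against 3.34 to 3.65). Replicate 4 of lung was high for Eng in aerocytes (1209 CPM against 881 to 935).

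In metastasis, C1q macrophages stood apart for Inhba in replicate 6 (32.4 CPM against 0 to 1.04) and for Tgfbr3 in replicate 1-3 (3.13 against 0). Over all endothelial cells of metastasis this held for Tgfb3 in replicate 5 (2.80 against 0), for Tgfbr2 in replicate 6 (136.8 against 65.6 to 74.1) and for Ltbp1 in replicate 4 (64.4 against 16.4 to 22.1).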

How the results depend on the processing

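Few libraries held each class (2 or 3 of fibroblasts in each tissue and 2 of macrophages in primary tumor), and leaving out 1 of them decided several calls. Of the values recomputed, 1227 kept their side of the threshold, 63 lost a call, 32 gained one and 1 with a call changed sign, and the cause was not tested. Of the 1227, 70 without a call in either fit changed sign, so no direction is given for them. The one with a call was Tgfb2 between primary tumor and lung, at −1.96 in venous cells alone. Leaving out libraries among fibroblasts without the led subclusters and among venous cells alone was added after the data were seen.

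Members called were as follows, each with the share of all genes called in the same fit. In endothelium, metastasis against primary tumor gave 2 with DESeq2 (13.2%) and 0 without the filter on low counts (6.36%), with replicates 5 and 6 only (7.85%) or in venous cells (4.56%), and metastasis against lung 3 with replicates 5 and 6 (22.4%) and 1 in venous cells (8.46%). In fibroblasts, metastasis against primary tumor gave 1 without the led subclusters (4.03%), metastasis against lung 1 with DESeq2 (4.77%) or without the filter (3.08%) and 2 without the led subclusters (5.22%), and primary tumor against lung 1 with replicates 5 and 6 (7.53%) and 5 without the led subclusters (16.9%). In macrophages, metastasis against primary tumor gave 1 without the filter (1.11%), metastasis against lung 3 without it (4.69%), 0 with replicates 5 and 6 (6.02%) and 2 with the replicate block (4.2%), and primary tumor against lung 2 with at least 50 cells (14.6%) and 3 without the filter (8.83%). Between lung cell types DESeq2 called 1, and the share of all genes, which differs by pair of types, is not given.

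All genes called changed as follows. In endothelium, metastasis against primary tumor fell from 1151 to 385 in venous cells, and metastasis against lung went from 342 to 779 without the filter, 2365 with replicates 5 and 6 and 715 in venous cells. In fibroblasts, metastasis against primary tumor went from 104 to 314 with DESeq2, 335 without the filter and 413 without the led subclusters, metastasis against lung from 98 to 529, 657 and 534 in the same order and 22 with replicates 5 and 6, and primary tumor against lung from 1321 to 2390 without the filter and 853 with replicates 5 and 6. In macrophages, metastasis against primary tumor went from 0 to 17 with DESeq2, 1 with at least 50 cells and 210 without the filter, metastasis against lung from 583 to 886 without the filter and 365 with replicates 5 and 6, and primary tumor against lung from 648 to 1218 with at least 50 cells and 1670 without the filter. MM cells went from 0 to 15 with DESeq2, 5 when clustered with the members and 75 without the filter. Clustering with the members kept the name of 96.15% of cells.

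With the replicate number as a block, genes called went to 182 in fibroblasts (metastasis against primary tumor), to 4, 294 and 195 in macrophages (metastasis against primary tumor, metastasis against lung, primary tumor against lung) and to 42 in MM cells. The block changed the calls of Acvr1, Tgfbr2, Tgfbr3 and Inhba given with the results and no other call of a member.

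Leaving out 1 library at a time gave ranges of members called and of genes called. In endothelium these were 0 to 1 and 764 to 1542 (metastasis against primary tumor), 0 to 2 and 126 to 852 (metastasis against lung) and 1 to 5 and 2058 to 3233 (primary tumor against lung). In fibroblasts they were 0 to 0 and 2 to 355, 0 to 0 and 7 to 300, and 1 to 4 and 376 to 1316 in the same order. In macrophages they were 0 to 0 and 0 to 8, 1 to 1 and 283 to 780, and 0 to 2 and 92 to 898. In MM cells they were 0 to 0 and 9 to 63. Between lung cell types it was 0 to 3 members, and the shares of all genes, which differ by pair, are not given. A minimum of 50 cells left out no library of fibroblasts, endothelium or MM cells, and replicates 5 and 6 alone gave no macrophage value for primary tumor.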
